A study of Mus musculus with 12 samples.

Results

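A set of 10 genes of calcium signalling and the cytoskeleton were followed in alveolar macrophages after ozone: Crip1, the S100 genes S100a4, S100a6, S100a10 and S100a11, Lgals1, the annexins Anxa1 and Anxa2, Vim and Ahnak. They were found by gene symbol, and 10 of 10 were among the 55291 symbols of the deposited table. The genes were chosen with the difference between ozone and filtered air in these mice already known, so that difference and the spread of the groups are described below and no test of them is read.

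RNA came from alveolar macrophages, the resident phagocytes of the air spaces, which had been sorted by flow cytometry from the lungs of female C57BL6/NJ mice aged 8 to 11 weeks. One group of 6 mice breathed 0.8 ppm ozone for 4 h per day on 4 days in a row, and the other group of 6 breathed filtered air on that schedule. Lungs of both groups were taken 3 days after the last exposure, under urethane anaesthesia. Cells were sorted in 2 batches with 3 mice of each group in each, and each library holds 1 mouse. The libraries are bulk samples of sorted cells of 1 sex, in which fewer cells of a type and less RNA per cell cannot be told apart.

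S100 proteins are small calcium sensors with EF-hand motifs that work mostly as dimers and change the activity of the proteins they bind. S100A4 binds the heavy chain of non-muscle myosin, and S100A10 forms a complex with annexin A2 that links membranes to the actin cortex and to the giant scaffold protein AHNAK. Transcripts of S100a4, S100a6, Crip1, Vim and Ahnak are also known to be abundant in monocytes, lymphocytes and stromal cells, so markers of those cells were read in the same libraries.

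The table holds variance-stabilized, log2-scaled values from which each gene's filtered-air average has been taken away, so 0 stands for that average. They say how a gene differs between mice and not how abundant it is. Differences are compressed in genes with few reads, and the number of reads behind each of the 10 genes is not recorded in the table. All 10 genes had reads in every mouse as far as the table shows, since 0 mice lay at the lowest value that libraries without a read share within a batch. The 13 marker genes of alveolar macrophages likewise had 0 mice at that value. The total number of reads per library is not in the table.

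The S100 members lie in the S100 gene cluster on mouse chromosome 3. In RefSeq on GRCm38.p6, the build that the submitters' processing notes name as mm10, S100a4 lies at chr3:90603770-90606045 and S100a6 at chr3:90612894-90614414, 6.85 kb apart with S100a5 between them. S100a11 (chr3:93520496-93526288) and S100a10 (chr3:93555117-93564645) are neighbours 28.8 kb apart, 2.91 Mb further along. Crip1 lies at chr12:113152012-113153879, Anxa2 at chr9:69453683-69491792, Vim at chr2:13574311-13582826 and Lgals1 at chr15:78926725-78930465. Ahnak (chr19:8989284-9076935) and Anxa1 (chr19:20373434-20390671) are both on chromosome 19. All 10 are protein-coding genes. In GENCODE M21 S100a4 overlaps the predicted gene Gm42674 on its own strand, which was excluded for low values here, and the pseudogenes S100a11-ps, Lgals1-ps1 and Lgals1-ps2 were excluded as well.

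The 4 genes with the largest differences are shown here with the 250 bases before their RefSeq start, read 5′ to 3′ on the strand of the gene, so that motifs can be compared among genes that differ most. Capitals mark matches on either strand. The motifs searched were the GC box with the letters GGGCGG, the TATA motif with the letters TATAAA, the AP-1 site with the letters TGANTCA, and the CArG box, which serum response factor binds. Crip1 is chr12:113151762-113152011, S100a4 is chr3:90603520-90603769, S100a6 is chr3:90612644-90612893 and Ahnak is chr19:8989034-8989283, all on the plus strand.
Crip1: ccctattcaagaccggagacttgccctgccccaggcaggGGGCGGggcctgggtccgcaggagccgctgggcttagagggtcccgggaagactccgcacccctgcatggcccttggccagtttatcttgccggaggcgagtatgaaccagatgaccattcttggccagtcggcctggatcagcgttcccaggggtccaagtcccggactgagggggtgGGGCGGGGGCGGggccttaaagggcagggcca
S100a4: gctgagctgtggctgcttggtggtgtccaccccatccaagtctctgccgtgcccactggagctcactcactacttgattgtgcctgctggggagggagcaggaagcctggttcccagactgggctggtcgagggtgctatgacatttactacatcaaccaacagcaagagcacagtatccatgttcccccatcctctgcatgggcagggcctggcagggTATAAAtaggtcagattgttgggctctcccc
S100a6: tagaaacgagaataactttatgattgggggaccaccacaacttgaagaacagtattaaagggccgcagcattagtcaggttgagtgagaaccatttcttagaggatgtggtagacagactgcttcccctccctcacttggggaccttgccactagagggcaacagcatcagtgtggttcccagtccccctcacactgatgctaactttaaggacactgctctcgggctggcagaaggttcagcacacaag
Ahnak: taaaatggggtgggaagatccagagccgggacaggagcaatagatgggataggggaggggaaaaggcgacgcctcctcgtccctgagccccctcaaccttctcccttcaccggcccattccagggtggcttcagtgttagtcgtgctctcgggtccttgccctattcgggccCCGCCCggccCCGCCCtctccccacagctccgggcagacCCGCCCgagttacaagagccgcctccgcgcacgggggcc

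None of the 4 motifs was found in all 4 of these promoters. Crip1 and Ahnak each held 3 GC boxes, S100a4 held a TATA box from 31 to 26 bases before the start, and S100a6 held 0 matches. Promoters of 8 of the 10 genes were in the RefSeq table (all but S100a10 and Lgals1). Of these, 4 held a GC box, against 32.7% of 32851 promoters searched over the same length, and 4 held a TATA box (S100a4, Anxa1, Anxa2 and Vim), against 12.4%. An AP-1 site was found in 2, S100a11 and Anxa2, against 6.75% of all promoters, and a CArG box in 0, against 1.47%. A match is a run of letters and was not tested as a binding site.

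Some libraries stood apart in these genes. Filtered-air mouse 4 had the highest value of its group in 6 of the 10 genes and filtered-air mouse 1 in the other 4, and ozone mouse 6 had the lowest value of its group in 7. Over the mean of the 10 genes filtered-air mouse 4 was at 0.29 and mouse 1 at 0.21, and the other 4 lay between -0.18 and -0.0037. The ozone mice lay between -0.48 and -0.27. RNA integrity numbers ranged from 8.9 to 9.7 in filtered air and from 9.2 to 9.7 after ozone, with the lowest in filtered-air mouse 4.

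Crip1, which encodes a small cysteine-rich LIM domain protein, had the largest difference of the 10 genes. In filtered air its lowest value was -0.49, its median -0.13 and its highest 0.58; after ozone these were -0.94, -0.87 and -0.69. Every ozone mouse lay below every filtered-air mouse, and the filtered-air mice were spread far more widely, with mice 1 and 4 at 0.52 and 0.58 and the other 4 below 0. The difference was -0.85 (SE 0.158, n = 6 per group), with SDs of 0.445 in filtered air and 0.0973 after ozone.

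S100a6 and S100a4, the neighbours on chromosome 3, were lower after ozone by similar amounts. S100a6, whose protein is also called calcyclin, had a lowest value of -0.53, a median of -0.21 and a highest value of 0.92 in filtered air, against -0.99, -0.80 and -0.51 after ozone. The groups met at 1 point, where ozone mouse 4 at -0.51 lay above filtered-air mouse 6 at -0.53. The difference was -0.77 (SE 0.215), with an SD of 0.599 in filtered air and 0.176 after ozone.

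S100a4, which is used as a marker of motile cells, ran from -0.48 over a median of -0.14 to 0.86 in filtered air and from -0.85 over -0.78 to -0.37 after ozone. Again 5 of 6 ozone mice lay below every filtered-air mouse and ozone mouse 4 was the exception. The difference was -0.70 (SE 0.187), with an SD of 0.509 against 0.181. Filtered-air mouse 4 carried the highest value in all 3 of these genes, and without it the differences were -0.51 for S100a4, -0.56 for S100a6 and -0.72 for Crip1.

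**Figure D1:**
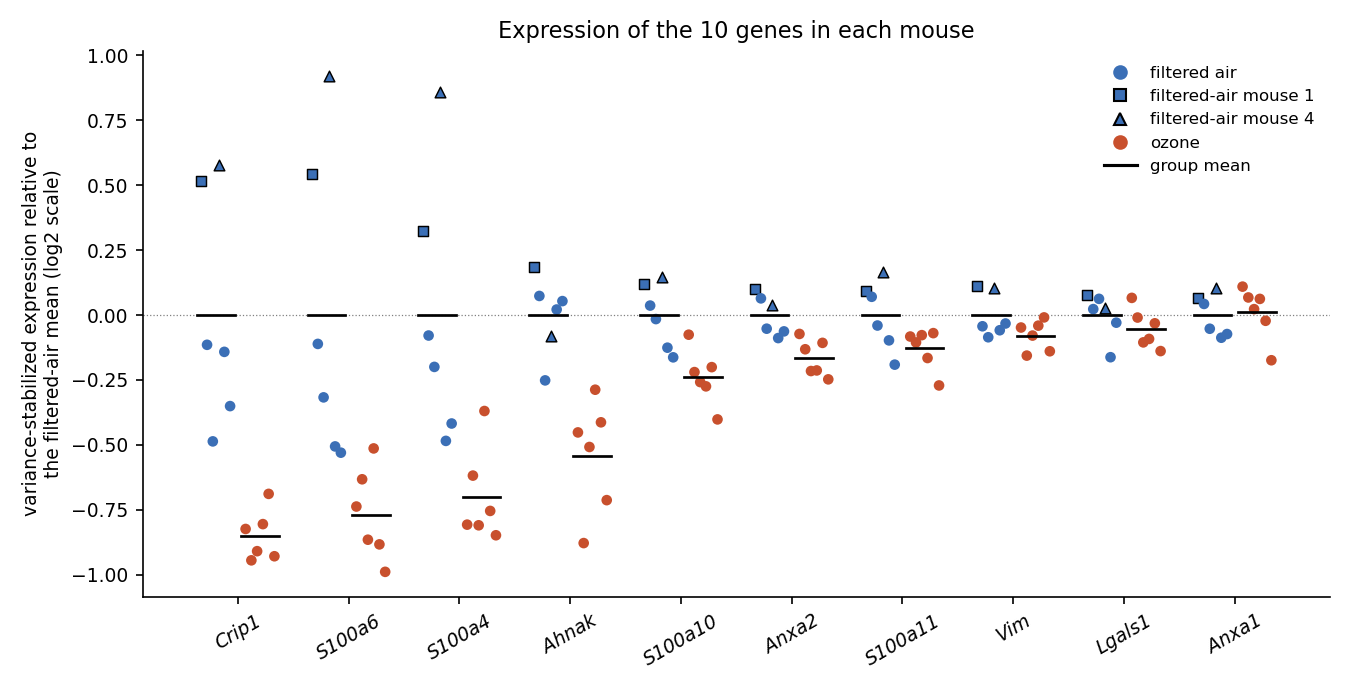
Value of each of the 10 genes in each of the 12 mice, in order of the difference; the y axis is the variance-stabilized value with filtered-air average set to 0 (log2 scale), points are mice, and bars are group means. In Crip1, S100a6 and S100a4 filtered-air mice 1 and 4 lie above 0 and the other 4 below it, while the ozone mice lie between -0.99 and -0.37.

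S100a10 and Anxa2, the partners of the membrane-bound complex, had smaller differences, and less spread than Crip1, S100a4 and S100a6. S100a10 had a lowest value of -0.16, a median of 0.0105 and a highest value of 0.15 in filtered air, and of -0.40, -0.24 and -0.076 after ozone. Anxa2 had values from -0.089 over -0.0060 to 0.099 in filtered air and from -0.25 over -0.17 to -0.073 after ozone. In both genes 5 of 6 ozone mice lay below every filtered-air mouse, the exception being ozone mouse 1. The difference was -0.24 (SE 0.0633) for S100a10, with SDs of 0.126 in filtered air and 0.106 after ozone. It was -0.16 (SE 0.0457) for Anxa2, with SDs of 0.0777 and 0.0702.

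S100a11 and Anxa1, another S100 protein and annexin known to bind each other, differed less. S100a11 ran from -0.19 over 0.015 to 0.17 in filtered air and from -0.27 over -0.094 to -0.070 after ozone, and 1 ozone mouse lay below every filtered-air mouse. Its difference was -0.13 (SE 0.0599). Anxa1, a mediator in the resolution of inflammation, was the only member with a higher mean after ozone, with a difference of 0.011 (SE 0.0526) that was below 0 in 7 of 22 alternative fits. Its values ran from -0.087 to 0.11 in filtered air and from -0.17 to 0.11 after ozone, so the groups overlapped.

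Ahnak, the scaffold bound by the S100A10 complex, stood with Crip1 in that its groups did not overlap. Filtered-air mice had a lowest value of -0.25, a median of 0.037 and a highest value of 0.18, and ozone mice -0.88, -0.48 and -0.29. Here filtered-air mouse 4 was below 0, at -0.0802, and the wider spread was after ozone (SD 0.216 against 0.15). The difference was -0.54 (SE 0.0942).

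Vim and Lgals1 had the smallest differences of the 9 genes with a lower mean after ozone. Vim, which encodes the intermediate filament protein vimentin, had a difference of -0.079 (SE 0.0457), with values from -0.085 to 0.11 in filtered air and from -0.16 to -0.0091 after ozone. Its SDs were 0.0870 in filtered air and 0.0581 after ozone, and 6 of 6 ozone mice lay below the filtered-air mean. Lgals1, which encodes the glycan-binding protein galectin-1, had a difference of -0.052 (SE 0.0486), and its groups shared most of their range, from -0.16 to 0.078 and from -0.14 to 0.066.

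In limma fitted over the 19633 genes kept, with Benjamini-Hochberg adjustment, 4 of the 10 genes had an adjusted p under 0.05, all lower after ozone: Crip1, Ahnak, S100a10 and S100a4. Over all genes tested 1.84% were called lower and 2.41% higher. Groups with every ozone mouse below every filtered-air mouse were found in 2 of the 10 genes and in 1.58% of all genes; every ozone mouse lay above every filtered-air mouse in 0 of the 10 and in 1.96% of all genes. Since the genes were chosen on this contrast, these counts only describe them. The line between called and not called passed close to 4 members, with limma's adjusted p at 0.0484 for S100a10 and 0.0496 for S100a4 on one side, and at 0.0596 for Anxa2 and 0.0618 for S100a6 on the other. When each of the 12 mice was omitted in turn, Crip1 and Ahnak were called all 12 times, S100a4 4 times and S100a10 3 times. The count fell to 2, Crip1 and Ahnak, without filtered-air mouse 1, 2 or 3 or without ozone mouse 2, 3, 5 or 6, and was 6 without filtered-air mouse 5. It was 1, Ahnak, after quantile normalization and with a variance trend. The median difference of the 10 genes was -0.20, and that of all genes kept was -0.0033.

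The difference was also computed within each flow-sort batch. The values of the 2 batches average to the difference on which the genes were chosen, so they are given as a description, and only the gap between the batches was tested. In both batches 9 of the 10 genes were lower after ozone, as were 33.2% of all genes kept. Anxa1 was the exception, at 0.061 in batch 1 and -0.039 in batch 2. Crip1 had a difference of -0.78 in batch 1 and -0.92 in batch 2, and Ahnak of -0.51 and -0.57. S100a4 showed the widest gap, with -0.46 in batch 1 and -0.94 in batch 2, followed by S100a6 with -0.58 and -0.96. Filtered-air mouse 4 was in batch 2. The difference between batches was -0.48 (SE 0.366) in S100a4 and -0.37 (SE 0.437) in S100a6. In limma's interaction test 0 of the 10 genes had an adjusted p under 0.05, as did 0% of all genes; at an unadjusted p under 0.05 there were 0 of the 10 and 510 of all genes. The smallest unadjusted p among the 10 was 0.211, for S100a4.

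**Figure D2:**
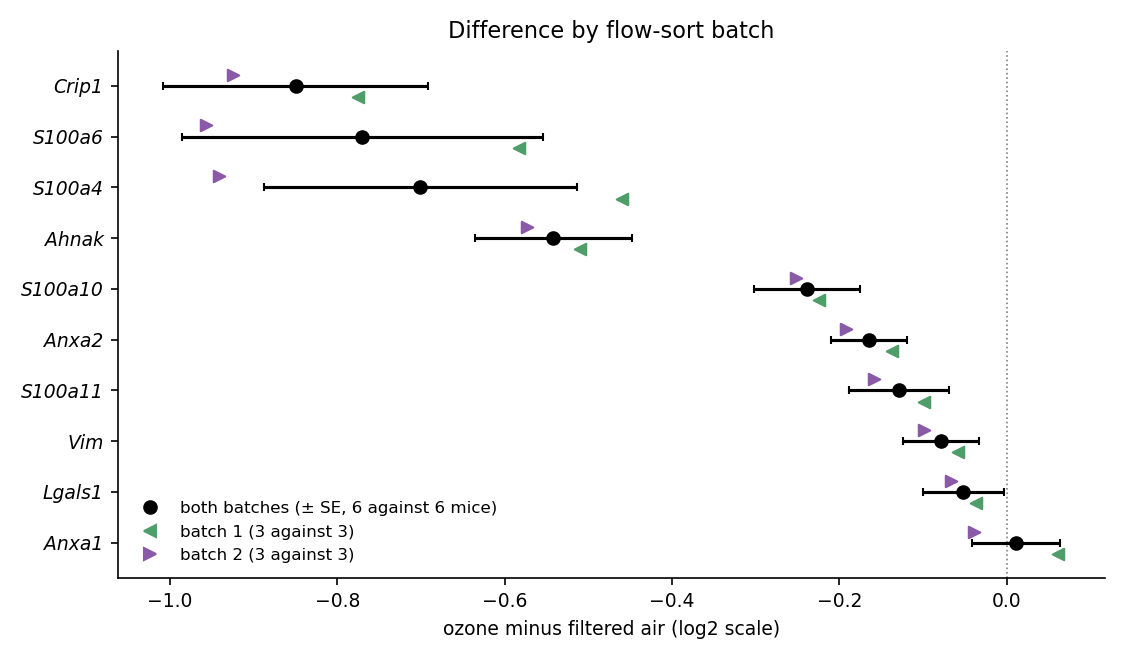
Ozone minus filtered air (log2 scale) for each gene, over both batches with the standard error (black) and within each flow-sort batch of 3 against 3 mice (triangles). The gap between the batches is widest in S100a4 (-0.46 in batch 1 and -0.94 in batch 2). In limma's interaction test 0 of the 10 genes had an adjusted p under 0.05.

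Spread within a group was larger in filtered air than after ozone in 8 of the 10 genes, the exceptions being Ahnak and Anxa1. The SD in filtered air was 4.57 times that after ozone in Crip1, 3.40 times in S100a6 and 2.81 times in S100a4, and between 0.694 and 1.71 times in the other 7. Over all genes kept, 48.6% had the larger SD in filtered air, with a median SD of 0.0745 there and 0.0759 after ozone. The ratios rest on 6 mice per group and were not recomputed without single mice. In S100a4 filtered-air mouse 4 lay at 0.86 and the next at 0.32. In S100a11 ozone mouse 6 lay at -0.271 and the next at -0.165.

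The 10 genes also varied together from mouse to mouse within a group. Over the 6 filtered-air mice the mean Pearson correlation of the 45 pairs was 0.672, with 44 pairs positive, and over the 6 ozone mice it was 0.417, with 41 positive. Among all pairs of the 17168 genes with no mouse at the lowest shared value, 50.0% were positive in either group, and the mean correlation was 0.0. The pairs share their genes and mice and are not independent. With an exact permutation test and adjustment over 90 relations, 0 pairs had an adjusted p under 0.05 for Pearson's r, and the smallest was 0.0625; 18 pairs in filtered air and 6 after ozone had an unadjusted p under 0.05. The smallest p that 6 mice allow is 0.00139. Leaving out the 2 mice farthest from the median of the first gene of a pair, 36 of the 44 positive pairs in filtered air and 24 of the 41 after ozone were still positive, while the 1 negative pair in filtered air and the 4 after ozone turned positive. Without ozone mouse 6 the mean correlation after ozone was 0.091, with 23 of the 45 pairs positive.

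The 3 pairs with the highest r of each group are given here, with the S100A10 and annexin A2 partners. S100a4 and S100a6 were the closest pair in filtered air (r = 0.987, Spearman's rho = 0.943, exact permutation p = 0.00278 and 0.0167, adjusted 0.0625 and 0.1; r = 0.965 without 2 mice). S100a10 and S100a11 came next (r = 0.975, rho = 1.0, exact permutation p = 0.00139 and 0.00278, adjusted 0.0625 and 0.05; r = 0.949 without 2 mice). Crip1 and Vim followed (r = 0.961, rho = 0.771, exact permutation p = 0.0208 and 0.103, adjusted 0.104 and 0.298), with an r of 0.506 without 2 mice. The genes of the first 2 of these pairs lie close together on chromosome 3. S100a10 and Anxa1, on different chromosomes, had an r of 0.947 in filtered air, or 0.939 without 2 mice. Whether distance on a chromosome goes with correlation was not tested. The Crip1 and Vim value was much lower without 2 mice.

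After ozone Lgals1 and Anxa2 were the closest pair (r = 0.959, rho = 0.943, exact permutation p = 0.00556 and 0.0167, adjusted 0.0714 and 0.1; r = 0.924 without 2 mice). S100a10 and Lgals1 came next (r = 0.938, rho = 0.886, exact permutation p = 0.0111 and 0.0333, adjusted 0.0781 and 0.188; r = 0.86 without 2 mice). Vim and Ahnak followed (r = 0.921, rho = 0.943, exact permutation p = 0.0125 and 0.0167, adjusted 0.0781 and 0.1), with an r of 0.482 without 2 mice. Crip1 and Vim came next after ozone, with an r of 0.914 and of 0.899 without 2 mice. S100a4 and S100a6 had an r of 0.885 there, or 0.348 without 2 mice. S100a10 and its partner Anxa2 had an r of 0.865 in filtered air (rho = 0.771, exact permutation p = 0.0403 and 0.103, adjusted 0.172 and 0.298; r = 0.938 without 2 mice). After ozone their r was 0.911 (rho = 0.943, exact permutation p = 0.00417 and 0.0167, adjusted 0.0714 and 0.1; r = 0.976 without 2 mice). The order of the mice was the same (rho = 1.0) in filtered air for S100a4 with Anxa1 and for S100a10 with S100a11, for S100a6 with S100a10 and S100a11, and after ozone for Crip1 with Vim.

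In filtered air Ahnak was the least tied to the rest. Its correlation with the mean of the other 9 genes was 0.182, where S100a6 had 0.981 and Lgals1 0.514, and the remaining 7 had values from 0.825 to 0.954. After ozone these correlations ranged from 0.392 for S100a4 to 0.786 for Anxa1, with Ahnak at 0.466. Whether the correlations differ between the groups was not tested.

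**Figure D3:**
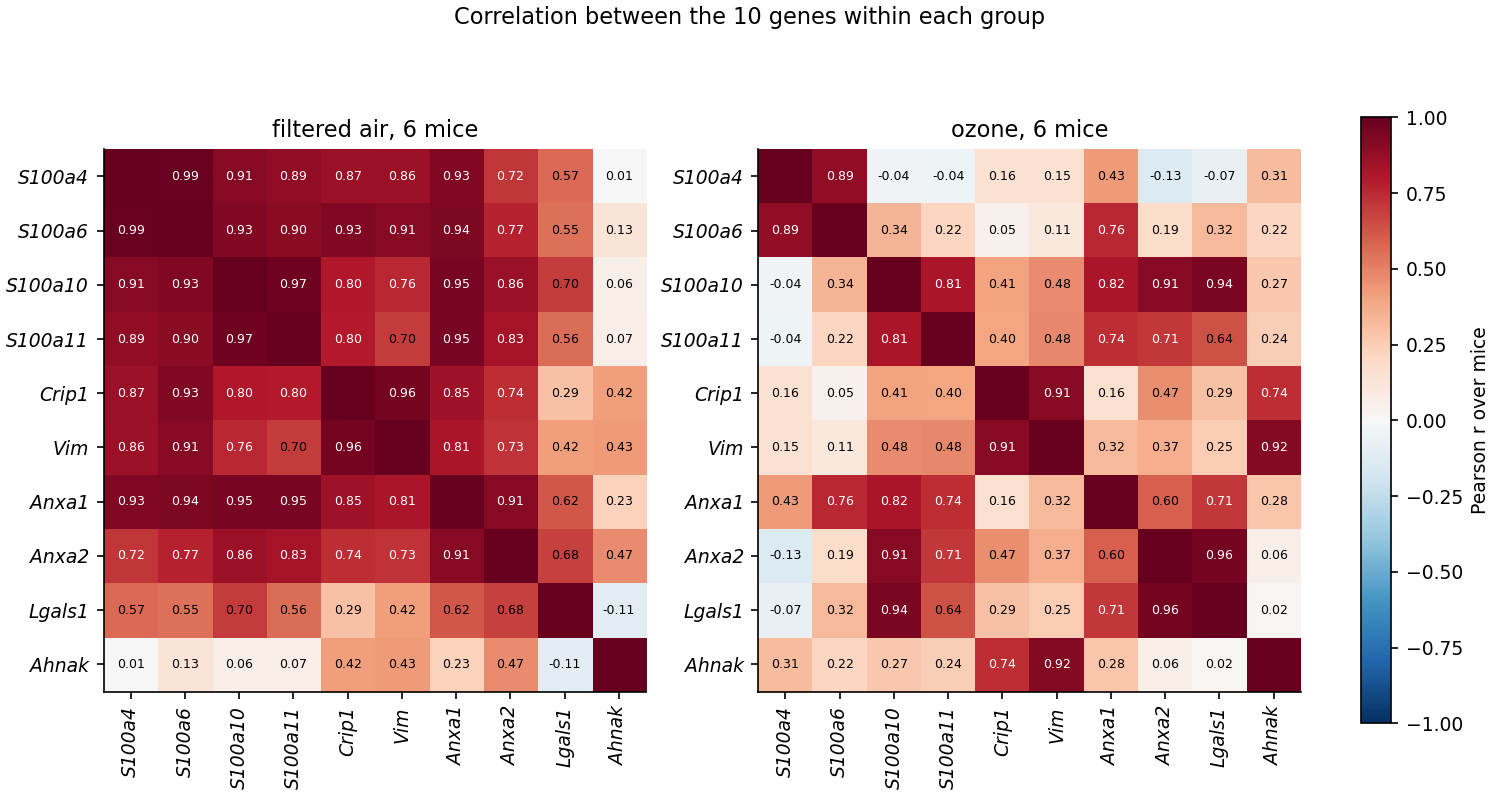
Pearson correlation between the 10 genes over the 6 filtered-air mice (left) and the 6 ozone mice (right), with the value printed in each cell. In filtered air 44 of 45 pairs are positive and the values of Ahnak and Lgals1 are the lowest; after ozone S100a4 has an r of 0.89 with S100a6 and of -0.13 with Anxa2.

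Genes that followed the same pattern from mouse to mouse were looked for among the 17168 genes, by the correlation over 12 mice of their deviation from the group mean with the mean deviation of the 10 genes, which S100a6, S100a4 and Crip1 dominate by their spread. The closest 10 had values from 0.904 to 0.945 and are given as a description. They were Ptgfrn, Slpi, Cd24a, Adgre1, Tuba1a, Mettl26, Rftn1, Ttll7, Hspb11 and Fam241a. Slpi, which encodes a secreted inhibitor of leukocyte proteases, followed them with 0.945 in filtered air and 0.947 after ozone. It was also lower after ozone, with a difference of -0.52 (SE 0.117), as was Adgre1, which encodes a surface receptor used as a macrophage marker (-0.30, SE 0.0468). Cd24a, a surface glycoprotein, had an r of 0.981 in filtered air but a difference of 0.030 (SE 0.106), and Ptgfrn one of 0.11 (SE 0.0421). Of the 10 genes 7 had a difference below 0, among them Ttll7 (-0.36, SE 0.108) and Tuba1a (-0.13, SE 0.0612), and 3 above 0; in 3 (Cd24a, Mettl26 and Hspb11) it was within 1 SE of 0.

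Relatives and partners of the 10 genes were read from 8 lists written by family and function, with 123 of 135 genes kept. In limma, with adjustment over all genes, 8 had an adjusted p under 0.05, of which 5 fell and 3 rose, or 6.5%, against 4.25% of all genes tested. The median difference of the 123 genes was -0.020.

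Of 8 genes kept in the list of other S100 genes, 7 encode S100 proteins and S100pbp encodes a protein that binds S100P, and 0 passed the test. S100a1, S100a13, S100a14, S100a16, S100a8 and S100a9 lie in the same cluster on chromosome 3 and had differences between -0.076 and 0.15, while S100a3 and S100a5, on either side of S100a4, had reads in too few mice. S100a8 and S100a9, which encode the neutrophil protein calprotectin, had differences of 0.085 (SE 0.0794) and -0.015 (SE 0.138). The smallest p of the list was that of S100pbp, with a difference of -0.15 (limma's adjusted p = 0.175). Among the other annexins 0 of 8 passed, and Anxa7 had the smallest p, with a difference of -0.12 (limma's adjusted p = 0.0915). Of 6 genes of other galectins and their binding proteins 1 passed, Lgals3bp, which encodes a secreted galectin-3 binding protein and rose by 0.17 (SE 0.0379, limma's adjusted p = 0.0177). Lgals3, the galectin typical of macrophages, had a difference of -0.12 (limma's adjusted p = 0.118).

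Of 21 genes of LIM proteins, the domain family of Crip1, 1 rose and 1 fell. Lasp1, an actin-binding LIM and SH3 protein, rose by 0.21 (SE 0.0345, limma's adjusted p = 0.00366), with ozone mice from 0.16 to 0.25 and filtered-air mice from -0.058 to 0.068. Pdlim1 fell by 0.20 (SE 0.0511, limma's adjusted p = 0.0385), and this call was lost on omitting any of 8 of the 12 mice. Crip2, a relative of Crip1, had a difference of -0.17 (SE 0.0851, limma's adjusted p = 0.353).

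Of 15 genes of other intermediate filaments and their linkers 1 passed. Lmna, which encodes lamins A and C of the nuclear envelope, fell by 0.24 (SE 0.0520, limma's adjusted p = 0.0162), from between -0.085 and 0.18 in filtered air to between -0.34 and -0.12. Lmnb1 and Lmnb2, which encode the B-type lamins, had differences of 0.15 each, with limma's adjusted p at 0.221 and 0.0886. Of 15 genes of membrane repair and AHNAK relatives Capn2, a calcium-dependent protease, fell by 0.18 (SE 0.0390, limma's adjusted p = 0.0169). Ahnak2, the paralog of Ahnak, had a difference of 0.16 (SE 0.114, limma's adjusted p = 0.556).

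Of 39 genes of cortical actin and non-muscle myosin 1 rose and 1 fell. Actn1, the actin cross-linker alpha-actinin 1, rose by 0.27 (SE 0.0341, limma's adjusted p = 0.000895), from between -0.047 and 0.075 to between 0.20 and 0.30. Ezr, which encodes the membrane-to-actin linker ezrin, fell by 0.26 (SE 0.0474, limma's adjusted p = 0.00620), while its relative Msn had a difference of -0.0044. Myh9, the myosin heavy chain bound by S100A4, had a difference of 0.12 (SE 0.0415, limma's adjusted p = 0.134). Of 11 genes of the annexin A1 receptors and the plasminogen system, Plaur, the urokinase receptor, fell by 0.29 (SE 0.0652, limma's adjusted p = 0.0204), and this call was lost without filtered-air mouse 1 or ozone mouse 5. Fpr1 and Fpr2, receptors for annexin A1 peptides, had differences of 0.18 and 0.0043, with limma's adjusted p at 0.0710 and 0.990.

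**Figure D4:**
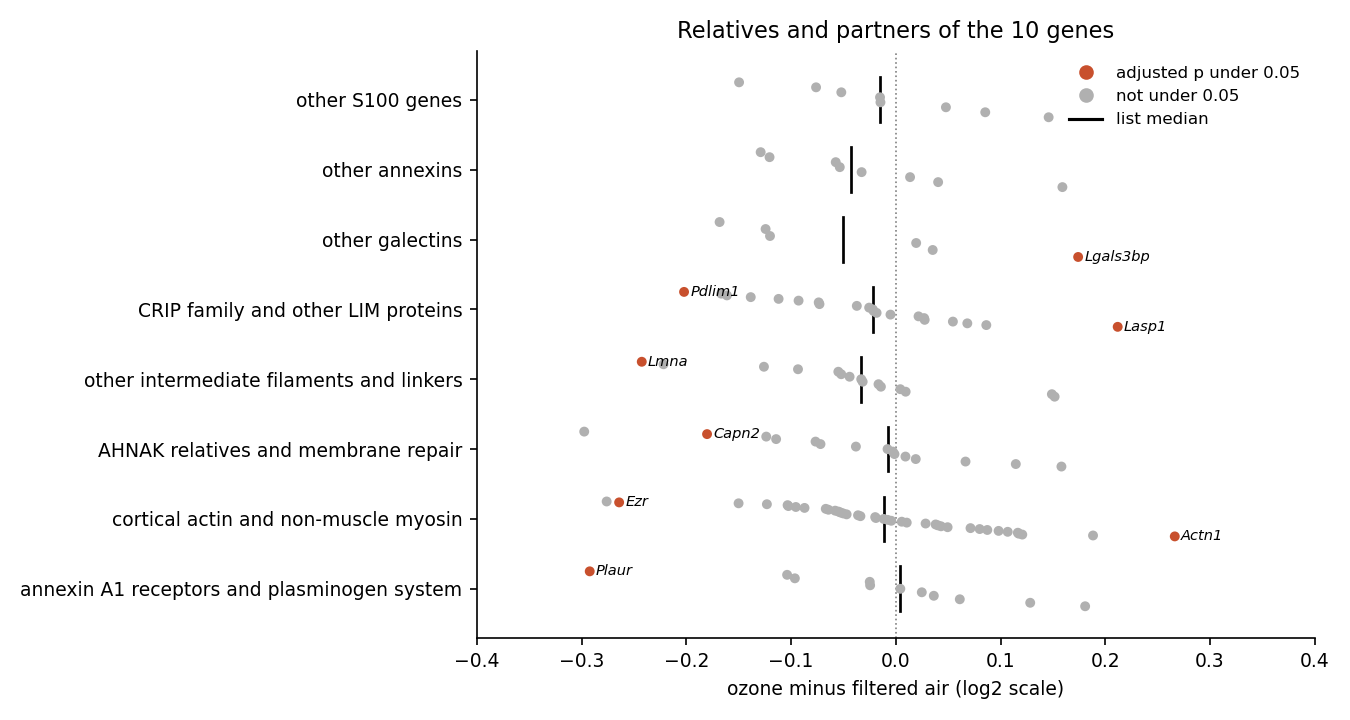
Ozone minus filtered air (log2 scale) for the 123 genes kept of the 8 lists of relatives and partners; each point is a gene, coloured and named where limma's adjusted p was under 0.05, and black bars are list medians. The 8 named genes lie on both sides of 0, and the list medians lie near 0.

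Markers of other cells were read in the same libraries through 11 lists with 98 genes, of which 88 were kept and 86 had 0 mice at the lowest shared value. Transcripts of most of these markers were therefore read in the sorted samples. Of the 88 genes 2 fell and 0 rose by limma's adjusted p: Iglc2 in the B cell list (difference -0.25, adjusted p = 0.0472) and Epcam in the epithelial list (-0.55, adjusted p = 0.00620). The differences were below 0 in 9 of 9 B cell genes, 9 of 9 NK cell genes, 8 of 10 T cell genes, 8 of 9 endothelial genes and 7 of 9 dendritic cell genes, against 52.0% of all genes kept. They were below 0 in 4 of 10 interstitial macrophage genes (median 0.043) and in 2 of 4 neutrophil genes (median 0.068), and in 6 of 10 epithelial and 5 of 10 fibroblast genes. Apart from Iglc2 and Epcam, 0 genes of these lists were called. The mean of the B cell list ranged from -0.36 to -0.093 after ozone and from -0.21 to 0.31 in filtered air, and that of the NK cell list from -0.17 to 0.026 and from -0.18 to 0.32. Classical monocyte genes ranged from -0.24 to 0.098 after ozone and from -0.23 to 0.36 in filtered air, with 5 of 7 lower. Of the neutrophil markers Camp and Stfa2 were at the lowest value in every mouse, and Ly6g, Ngp and Mpo had reads in too few mice to be kept. The part of these cells in the differences was not tested. Among the 13 alveolar macrophage markers themselves 3 were called by limma's adjusted p, or 23.1%, against 4.25% of all genes tested, and 8 had a difference below 0. Ear1 (difference -0.28, adjusted p = 0.0358) and Krt79 (-0.35, adjusted p = 0.0177) fell, and Car4 (0.32, adjusted p = 0.046) rose.

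The 2 filtered-air mice with high values differed in these lists. In 11 of the 11 lists filtered-air mouse 4 exceeded its group's median, and in 7 it was the highest. The list of eosinophils, basophils and mast cells held only 1 kept gene, Ms4a2, with some mice at the lowest shared value. The neutrophil list held 4. Its mean over the 13 alveolar macrophage markers was the lowest of its group, at -0.0992, but this rank rested on Marco, a scavenger receptor, at -0.95. Over the other 12 markers its mean was -0.0286, above filtered-air mice 3 and 6, and it was the lowest of the group in 5 of the 13 markers (Marco, Fabp1, Pparg, Cidec and Ear1) and the highest in 2 (Car4 and Itgax). Filtered-air mouse 1 exceeded it in 1 list and was the highest in 0, while all 10 genes were above 0 in this mouse. Its classical monocyte mean was -0.21, and its interstitial macrophage mean of -0.28 was the lowest of the group. Over the 6 mice of a group the mean of the 10 genes was correlated with each of the 12 marker lists and with RNA integrity. Of these 26 relations 0 had an adjusted p under 0.05 in the exact permutation test. The largest in filtered air was with the neutrophil list (r = 0.816, rho = 0.943, exact permutation p = 0.0431 and 0.0167, adjusted 0.982 and 0.433), and it rested on 2 mice (r = 0.108 without them). Without 2 mice r was -0.960 with the dendritic cell list, -0.907 with the NK cell list and -0.891 with the T cell list, against -0.0855, 0.383 and -0.346 over all 6. The largest after ozone was with the alveolar macrophage list (r = 0.703, rho = 0.829, exact permutation p = 0.14 and 0.0583, adjusted 0.982 and 0.758; r = 0.888 without 2 mice). With RNA integrity r was -0.668 in filtered air (rho = -0.522, exact permutation p = 0.147 and 0.300, adjusted 0.982 and 0.996), and 0.415 without 2 mice.

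**Figure D5:**
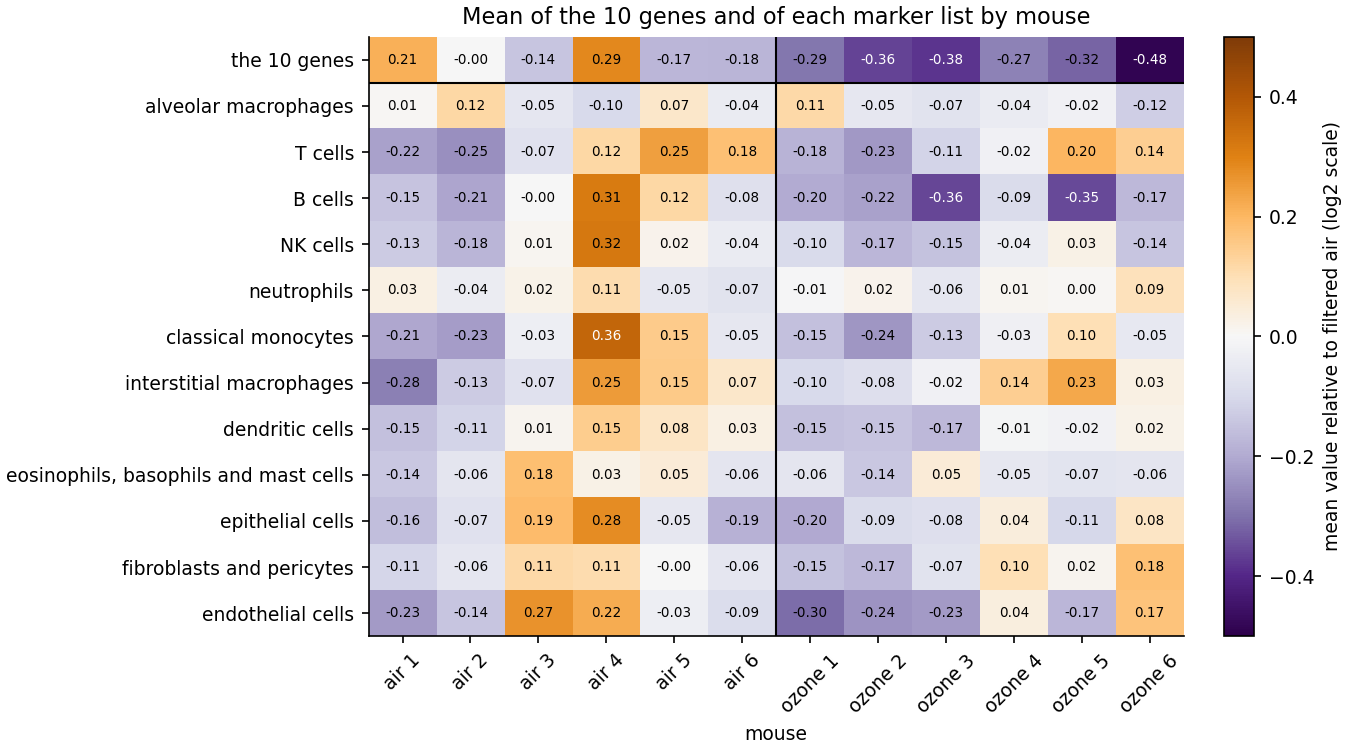
Mean of the 10 genes (top row) and of the genes kept in each of the 12 marker lists, by mouse, relative to the filtered-air mean on a log2 scale. The top row is high in filtered-air mice 1 and 4, whereas the lists of other cells are mostly high in mouse 4 and low in mouse 1.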

How the data were processed

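Per the submitters' processing notes, cutadapt, STAR 2.7.7a, Salmon 1.5.2, DESeq2 1.26.0, limma 3.42.2, R 3.6.0 and mm10 were used; which step each served is not given in the sources used here. The deposited values are on a log2 scale, variance-stabilized and batch-corrected by the authors per the file's name. The filtered-air mean and the difference between batch means are 0 in every gene.

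Genes were kept where at least 6 of 12 mice lay above the lowest value shared by 2 or more mice of a batch (19633 of 25444 genes that vary). Ozone was compared with filtered air in limma 3.58.1 under R 4.3.3; the model held the sort batch and no variance trend, because gene means carry no abundance. P-values were adjusted by Benjamini-Hochberg over all genes kept. Correlations used exact permutation tests over 6 mice, two-sided. The code was tested on simulated data. Mice, not cells, are the replicates.

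The 10 genes and all lists were chosen with earlier results of these data known. Besides the 10, the text names the called genes of each list (else the smallest p), relatives that illustrate a list and were picked after their values were seen, and the 10 genes most alike between mice. Alternatives varied the filter, covariates, variance model, scaling, batches, a replicate block and single mice.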

Additional observations from a re-analysis of the deposited data

Results flagged for a closer look

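Among 38 combinations of group and gene examined, 2 held a mouse far from the rest of its group (a gap to the nearest mouse, over the group's range, above Dixon's critical value), where chance gives about 1 in 20, or 1.9. None of the 10 genes was among them. In Lmna, filtered-air mouse 1 was the highest, at 0.178 (ratio 0.686). In Plaur, ozone mouse 2 was the highest, at -0.0455 (ratio 0.640).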

How the results depend on the processing

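Under 22 alternatives each, the differences of 9 of the 10 genes stayed below 0, and that of Anxa1 was below 0 in 7, from -0.039 to 0.061. S100a4 ranged from -0.94 in batch 2 alone to -0.46 in batch 1 alone, and Lgals1 from -0.088 to -0.033. The count called, 4, was 6 without the batch covariate and 6 with array weights; it was 4 with RNA integrity as a covariate, where S100a6 took the place of S100a10. It was 2 without the filter, 1 with the variance trend, 1 after quantile normalization, and 0 in batch 1 alone and 0 in batch 2 alone, each with 3 against 3 mice. Without single mice it ranged from 2 to 6. The count for relatives and partners, 8, was 13 without the batch covariate, 3 after quantile normalization and 0 in either batch alone, and ranged from 6 to 9 without single mice; in 176 refits of these 8 genes 32 lost the call and 0 changed direction. Why these counts differ between settings was not tested. The mean correlation ranged from 0.574 to 0.721 in filtered air and from 0.091 to 0.542 after ozone without single mice. The interaction gave 0 of the 10 genes under each setting run. Replicate numbers are shared by different animals and were not treated as pairs (correlation of deviations from -0.00944 to 0.299, over 0.1 in 4 of 6); with the replicate block 5 of the 10 genes, S100a6 in addition, and 11 relatives were called. Depth per gene is not in the table, so its part in the precision of the values was not assessed.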
